A study of Mus musculus with 29 samples.

Results

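Lymph node tumours of Eμ-myc mice (Tg_lymphnode) made up 3 of the 29 libraries of the series, and their gene levels were described as those of 1 group. The 3 were chosen by their titles and not by any value. Each library is total RNA, depleted of ribosomal RNA, from a cell suspension that was pressed out of the lymph nodes of C57BL/6 mice of genotype Tg and was not purified further. In this model an immunoglobulin heavy chain enhancer, active in the B lineage, drives a transgenic copy of Myc. Values from splenic B cells of transgenic mice (Tg_spleen, n = 4) and of wild-type mice (WT_spleen, n = 4) served for comparison. Both of these groups were C57BL/6, 6 to 8 weeks old and enriched on B220 beads, a step the tumours did not have. The labels call the tumour cells B cells from lymph nodes and give neither the age of these mice nor how many mice each suspension came from. P-values therefore measure the spread between these samples only.

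Myc is a transcription factor that binds DNA as a dimer with Max and drives genes of ribosome production, metabolism and cell division. In Eμ-myc mice, B cell precursors with raised Myc first multiply as a polyclonal population, and clonal lymphomas arise later, after further lesions. The Arf and p53 pathway is the brake most often lost on the way: Arf, a product of Cdkn2a, holds back Mdm2, which otherwise removes p53. Each lymphoma thus stems from its own founder cell, and the founders can be at different stages of differentiation.

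Values are FPKM, fragments scaled to the length of the gene and the reads of the library, as deposited with 1 decimal. Of 21819 genes listed, 14559, 14744 and 14744 had at least 1 FPKM in replicates 1, 2 and 3. From the spacing of the lowest values, about 8.30, 8.99 and 9.06 M reads lay on genes, and 1 read in a gene of 1 kb was worth 1.14 to 1.24 FPKM. The values were thus scaled to about 0.81, 0.88 and 0.83 M reads, fewer than lay on genes, and what was counted in that number is not given in the sources used here. The median gene of the classes under 10, of 10 to 100, of 100 to 1000 and of at least 1000 FPKM then rested on about 5.53, 101, 644 and 2767 reads. Rpph1, the RNA of ribonuclease P, had 442640, 608649 and 517632 FPKM in replicates 1, 2 and 3, and Rmrp, the RNA of a related ribonuclease, had 578271, 613681 and 986814 FPKM. Their part in the levels of other genes was not tested.

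The 3 tumours did not carry the same lineage genes, and replicate 3 went against its label. Genes of B cells were high in replicates 1 and 2 and low in replicate 3, which carried genes known from plasmacytoid dendritic cells instead. Of the 8 genes of a B cell marker list, 6 were lowest in replicate 3 by more than 2-fold. Ebf1, which starts the B cell programme, had 1189, 1246 and 18.8 FPKM in tumour replicates 1, 2 and 3, against 892.8 to 1311 FPKM in Tg_spleen and 1161 to 1710 FPKM in WT_spleen. Both high tumours lay within the values of the spleen libraries, and replicate 3 lay far below every other library. The 13 genes of a plasmacytoid dendritic cell list summed to 1963, 2788 and 26451 FPKM in the 3 tumours. Their sum over WT_spleen libraries was at most 2769 FPKM. Ly6c2 and Bst2 gave 10643 and 7426 FPKM of the sum in replicate 3. The library is called by its label and number below, and lists that it sets apart are also counted for replicates 1 and 2 alone.

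Siglech, a surface lectin of plasmacytoid dendritic cells, had 11.6, 23.2 and 2655 FPKM in the tumours, 6 to 15.8 FPKM in Tg_spleen and 15 to 143.9 FPKM in WT_spleen. Replicate 3 alone stood above all other libraries, while replicates 1 and 2 lay within the values of WT_spleen or just below them. The promoters of Cd79a, a signalling chain of the B cell receptor, and of Siglech are shown because these genes mark opposite sides of that divide. They are RefSeq sequences of build GRCm38.p6, 250 bases before to 50 bases after the start, 5′ to 3′ on the plus strand, at chr7:24897247-24897546 for Cd79a and chr7:55767934-55768233 for Siglech. Capitals mark matches to CANNTG, the E-box read by basic helix-loop-helix factors such as Tcf3, Tcf4 and Myc with Max, which reads the same on both strands.
Cd79a: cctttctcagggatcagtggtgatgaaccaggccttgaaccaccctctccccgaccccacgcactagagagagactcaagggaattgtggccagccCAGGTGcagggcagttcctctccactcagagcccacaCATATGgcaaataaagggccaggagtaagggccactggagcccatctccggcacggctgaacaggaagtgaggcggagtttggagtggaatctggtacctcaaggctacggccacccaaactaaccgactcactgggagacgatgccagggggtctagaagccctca
Siglech: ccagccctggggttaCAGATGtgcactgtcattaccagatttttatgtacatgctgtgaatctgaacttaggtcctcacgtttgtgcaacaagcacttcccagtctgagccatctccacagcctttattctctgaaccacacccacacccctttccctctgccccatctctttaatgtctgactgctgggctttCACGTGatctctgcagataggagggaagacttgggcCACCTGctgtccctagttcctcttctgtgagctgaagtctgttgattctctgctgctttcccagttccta
Cd79a holds 2 E-boxes and Siglech holds 3, and 72.3% of 32851 mouse promoters of this length hold at least 1, so the match is a description of the letters only. Among the E-box factors themselves, Tcf3 had 1123, 729.5 and 258 FPKM in tumour replicates 1, 2 and 3. Tcf4, which directs plasmacytoid dendritic cell fate, had 134.1, 67 and 814.8 FPKM. Tcf3 was lowest and Tcf4 highest in replicate 3.

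**Figure D1:**
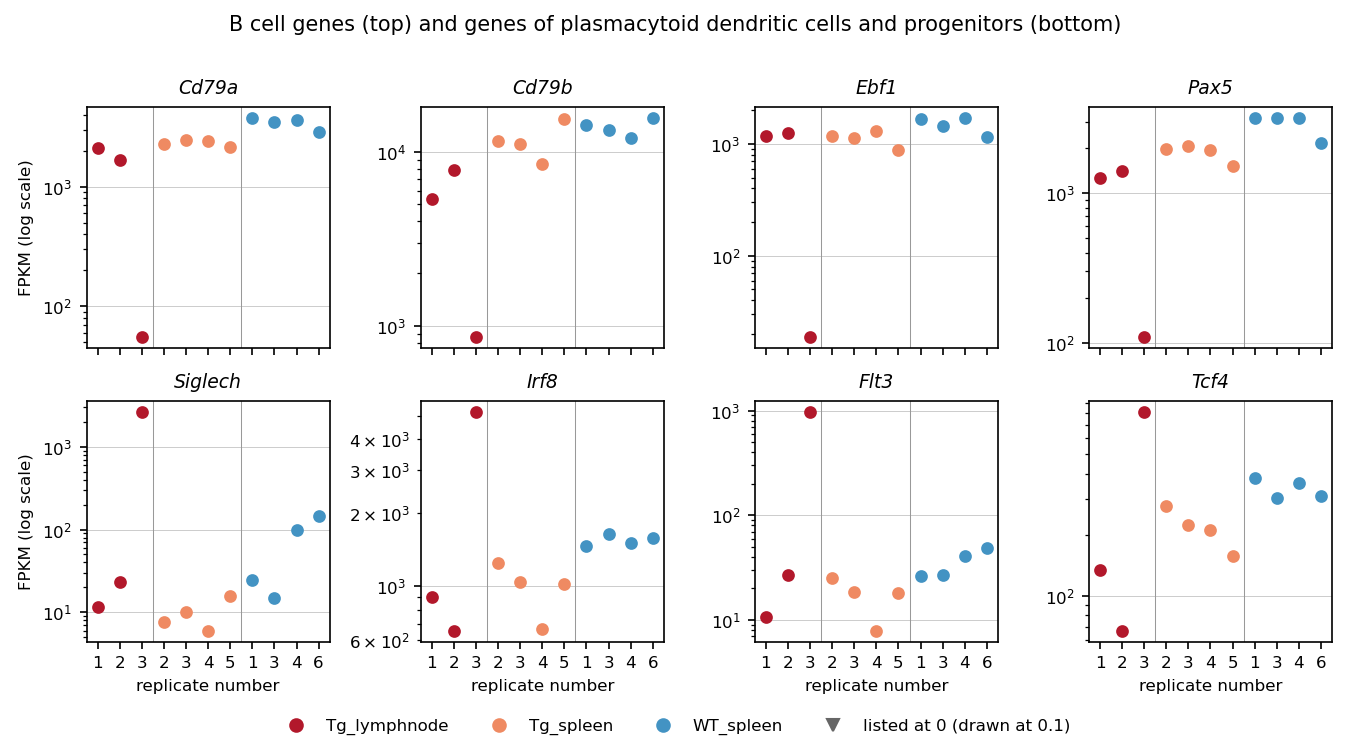
Level of 8 lineage genes in each library, as FPKM on a log axis, with Tg_lymphnode at the left, Tg_spleen in the middle and WT_spleen at the right; each point is 1 library. Tumour replicate 3 lies below all other libraries for Cd79a, Cd79b, Ebf1 and Pax5 and above all of them for Siglech, Irf8, Flt3 and Tcf4.

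Genes of B cell progenitors held the largest median range of the 36 function lists apart from genes of the X and Y chromosomes, at 3.32 against 3.03 for interferon-stimulated genes. Between replicates 1 and 2 alone the order turned, with medians of 1.31 and 2.33. The range of a gene is the difference between its highest and lowest tumour on log2(FPKM + 0.5), which understates the change of low genes. A gene is called wide at a range of at least 1, which is 2-fold, and level at a range under 0.5, which is 1.41-fold. Of the 845 entries of the function lists, 816 are genes listed in the data and 812 reached 1 FPKM in a tumour. Of the 200 entries of the cell type lists, 194 are listed and 185 reached that level. Wide and level members are counted among those that reached it. Of 15890 genes with at least 1 FPKM in 1 tumour or more, 6882 were wide (43.3%) and 4135 were level (26.0%), with a median range of 0.86. Of 7041 genes with a mean of at least 100 FPKM, 1578 were wide (22.4%) and 2793 level (39.7%). Between replicates 1 and 2 alone, 3183 genes were 2-fold apart (20.0%), and 410 of those with a mean of at least 100 FPKM (5.82%), with a median difference of 0.41. Replicate 3 differed 2-fold from replicate 1 in 4947 genes and from replicate 2 in 4625. Among genes that reached 20 FPKM, 1070 were at least 2-fold higher and 732 at least 2-fold lower in replicate 3 than in both other tumours. Replicate 1 stood above both others in 288 genes and below in 477, and replicate 2 in 257 and 246. Over all 15890 genes, replicates 1, 2 and 3 were highest for 32.8%, 31.0% and 36.2% and lowest for 33.6%, 28.6% and 37.7%. Over those with a mean of at least 100 FPKM, replicate 3 was highest for 33.2% and lowest for 44.5%, and counts of lists by highest or lowest library read against these shares.

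Among 23 B lineage transcription factors, 16 were wide and 2 level, with a median range of 2.12, and 1 was 2-fold apart between replicates 1 and 2. Ebf1, given above, was one of the wide ones. Pax5, which commits cells to the B lineage, had 1268, 1402 and 109.5 FPKM. Pou2af1, the coactivator of octamer factors, had 2291, 1939 and 50.6 FPKM. For all 3 genes replicate 3 was the low library, and replicates 1 and 2 were close to each other. Bach2 had 245.2, 181.8 and 16.1 FPKM and Foxo1 279.9, 174.7 and 38.6 FPKM. Irf8, which acts in B cells and is required for plasmacytoid and some conventional dendritic cells, ran the other way with 900.4, 655.9 and 5195 FPKM. Factors shared by lymphoid and myeloid cells varied little: Ikzf1 had 1116, 1131 and 810.7 FPKM, and Sfpi1, which encodes PU.1, had 284.9, 253.4 and 207.2 FPKM.

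The surface of the cells followed. Of 30 mature B cell surface genes, 21 were wide, with a median range of 1.72, and 20 were lowest in replicate 3. Between replicates 1 and 2, 7 were 2-fold apart. Cd79a had 2113, 1673 and 55.6 FPKM in tumour replicates 1, 2 and 3, and its partner Cd79b 5357, 7874 and 862.5 FPKM. Ms4a1, which encodes CD20, had 2262, 2935 and 137.1 FPKM. The inhibitory receptor gene Cd22 had 1712, 1271 and 99.4 FPKM. Replicate 3 was low for all 4, yet none was listed at 0. Btla, an inhibitory receptor, was close in all 3 with 612.4, 602.7 and 498.8 FPKM. Downstream kinases and adaptors of the receptor varied less than the receptor: 9 of 24 B cell receptor signalling genes were wide, with a median range of 0.76, and 0 were 2-fold apart between replicates 1 and 2. Blk, a kinase largely restricted to B cells, had 495, 691.2 and 18.9 FPKM, whereas Lyn, shared with myeloid cells, had 606.4, 771.2 and 671.4 FPKM and Vav1 had 565.8, 566.1 and 572.5 FPKM. Of the immunoglobulin list only Igj, the joining chain, is among the genes listed, at 234.6, 359.4 and 415.9 FPKM.

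Genes of B cell progenitors separated replicate 1 from replicate 2 as well. Of 20 such genes, 19 were wide, with a median range of 3.32, and 11 were at least 2-fold apart between replicates 1 and 2. Igll1, a surrogate light chain gene of pre-B cells, had 90.1 FPKM in replicate 1 and was listed at 0 in replicates 2 and 3. Cd93, a marker of immature B cells, had 1198, 444.2 and 41.8 FPKM in replicates 1, 2 and 3. Lef1, a factor of pro-B and pre-B cells, had 431.4, 75.1 and 18.6 FPKM. Rag1, of the recombinase that assembles antigen receptors, had 171.3, 93.7 and 21.8 FPKM, and Rag2 39.8, 39.3 and 0.7 FPKM. Vpreb3, which is expressed through B cell maturation, had 2103 and 1364 FPKM in replicates 1 and 2 and was listed at 0 in replicate 3, against 648.4 to 2487 FPKM in Tg_spleen and 557.3 to 698.4 FPKM in WT_spleen. Cplx2 had 494.3, 101.3 and 1.4 FPKM. Replicate 1 was the highest tumour for 11 of the 20, replicate 2 for 4 and replicate 3 for 5. Among the last was Flt3, the cytokine receptor of early progenitors and dendritic cells, with 10.6, 26.7 and 979.5 FPKM.

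All 13 plasmacytoid dendritic cell genes were wide, with a median range of 4.07, and 12 were highest in replicate 3. Between replicates 1 and 2, 7 of them were 2-fold apart. Cox6a2 had 5.5, 10.1 and 1305 FPKM in the tumours. Ly6c2 had 704.5, 235.8 and 10643 FPKM. Bst2, also an interferon-stimulated gene, had 535.2, 967.3 and 7426 FPKM. Ccr9, a chemokine receptor of gut homing, had 13.2, 46 and 749.5 FPKM, and Runx2 4.3, 10 and 460.8 FPKM. Replicate 3 was far above the other tumours for each of these. Pacsin1, from the same list, had 4.3, 9.8 and 11.2 FPKM, which is below the 53.3 to 64.7 FPKM of WT_spleen. Ptprs was highest in replicate 2, with 389, 915.9 and 724.2 FPKM. Tlr7 had 17.1, 72.7 and 370.5 FPKM and Tlr9 88.2, 136 and 370.9 FPKM. For both, replicate 3 lay within the values of WT_spleen, 343.2 to 447.9 FPKM for Tlr7 and 295.5 to 548.1 FPKM for Tlr9. Klk1 of this list is also in the list of salivary genes. A total of 9 of 10 conventional dendritic cell genes were also wide, 9 were highest in replicate 3, and 4 were 2-fold apart between replicates 1 and 2. Of these, Itgax had 35.7, 56 and 596 FPKM and Clec9a 11.5, 12.5 and 155.9 FPKM, while Xcr1, a defining gene of cross-presenting dendritic cells, stayed at 2.2, 2.5 and 3.9 FPKM.

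Genes of T cells did not move as a block in that library. Cd4 had 134.8, 145 and 9468 FPKM and Cd8b1 59.6, 149.1 and 7615 FPKM in tumour replicates 1, 2 and 3. Cd8a, the partner of Cd8b1, had 33.5, 98 and 86.4 FPKM, and Cd3e, of the T cell receptor complex, 38.6, 143.1 and 62.8 FPKM. Cd3e was thus highest in replicate 2 and not in replicate 3, as were 11 of 14 T cell markers. Ptprc, the leukocyte antigen CD45, had 1502, 2000 and 2480 FPKM. In these bulk suspensions, fewer cells of a type and less RNA per cell cannot be told apart.

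The genes farthest from both other tumours in replicate 3 were of several kinds. Ly6k, of the Ly6 family of surface proteins, had 9.4, 2.9 and 3568 FPKM in the tumours, and at most 34.9 FPKM in any spleen library. Scn3a, a sodium channel subunit, had 1.5, 0.4 and 426.3 FPKM, and Smyd1, a muscle methyltransferase, 0.4, 0.7 and 259.4 FPKM. Glt1d1 and Dusp9, a phosphatase of MAP kinases, had 168.9 and 159.9 FPKM in replicate 3 and were listed at 0 in replicates 1 and 2. Lowest in replicate 3 beside Vpreb3 were Alpl, the tissue-nonspecific alkaline phosphatase, with 659.4, 471.1 and 0.5 FPKM, Foxf2 with 228.3, 257.3 and 1 FPKM, and Rsph1 with 51.8, 255 and 0 FPKM. Of skeletal muscle markers, 5 of 9 were wide, and Acta1 had 196.9, 227.1 and 231.1 FPKM, so the list as a whole did not go with Smyd1.

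**Figure D2:**
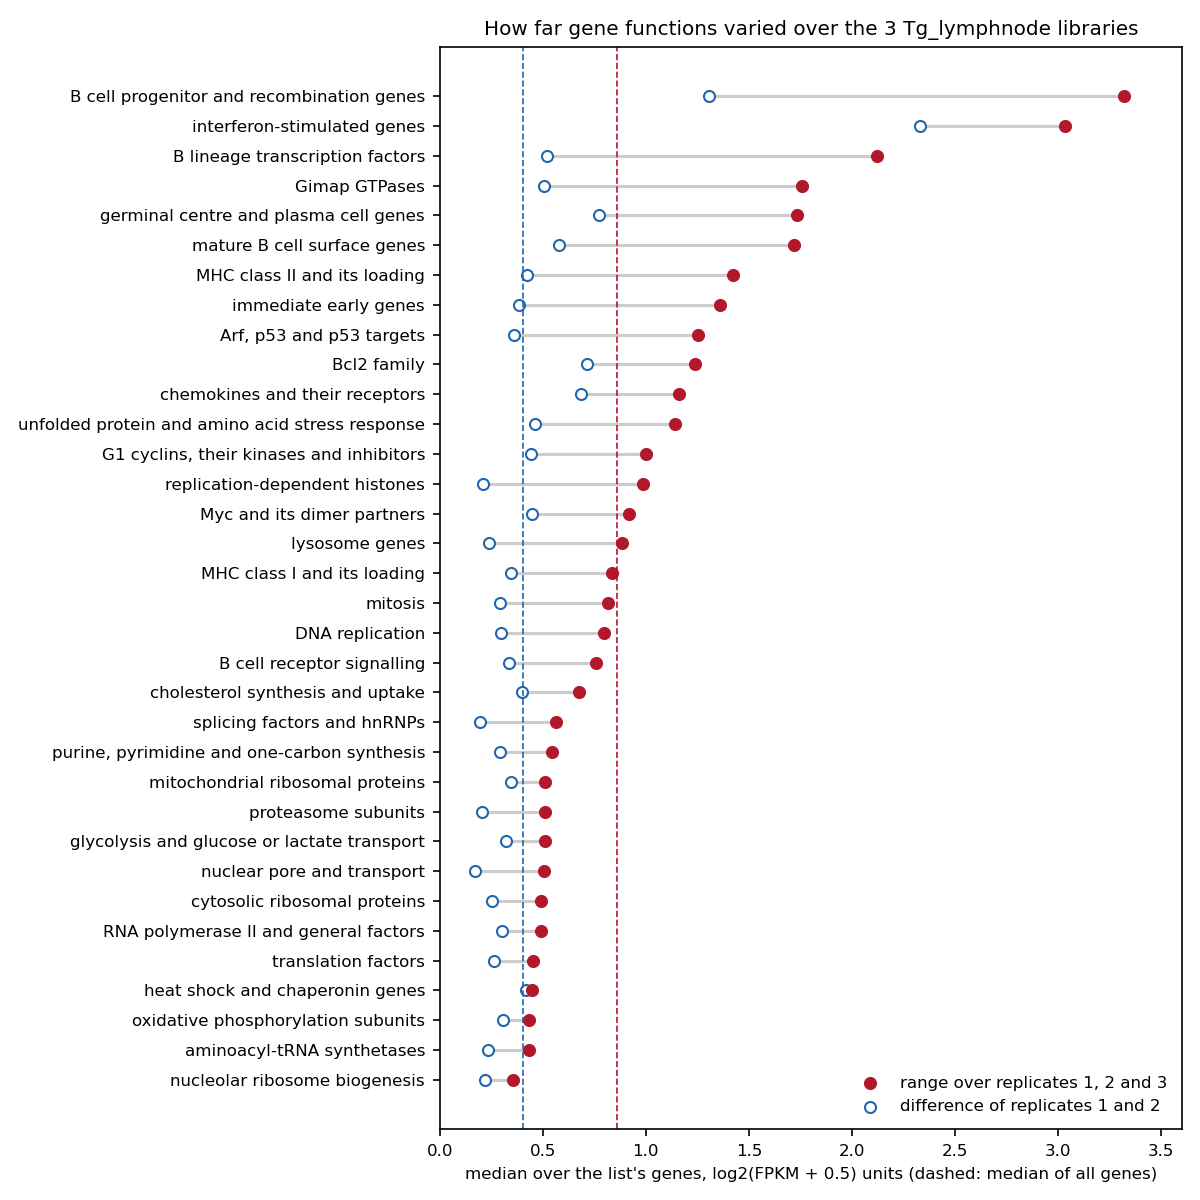
Median over the genes of each function list of the range over the 3 Tg_lymphnode libraries (filled) and of the difference between replicates 1 and 2 (open), on log2(FPKM + 0.5); dashed lines are the medians of all 15890 genes, 0.86 and 0.41. Lists of B cell identity and interferon-stimulated genes lie at the right, and lists of ribosome biogenesis, respiration and translation lie left of the dashed median for the range.

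Interferon-stimulated genes divided the tumours in another way, with replicate 1 low. All 24 of the list were wide, with a median range of 3.03, and 20 were at least 2-fold apart between replicates 1 and 2. Replicate 1 was lowest for 23 of them and replicate 3 highest for 17. Ifit3, an effector against viral RNA, had 6, 140.7 and 107.8 FPKM in the tumours, against 21.7 to 92.9 FPKM in Tg_spleen and 69.2 to 181.1 FPKM in WT_spleen. Oasl1 had 8.5, 88.9 and 209.4 FPKM. Mx1, a GTPase that blocks viruses, had 30.3, 205.9 and 749.9 FPKM. Irf7, a driver of interferon production and itself induced by it, had 37.6, 260.4 and 640.7 FPKM. Replicate 1 was below every spleen library for Ifit3, Oasl1 and Irf7. Irf9, which carries the interferon signal to the nucleus, had 157.8, 380.2 and 436.8 FPKM. The exception at the low end was Ddx58, the sensor RIG-I, with 97.1, 239.8 and 94.7 FPKM. Ifi44 had the widest range, with 2.1, 17.6 and 457.5 FPKM.

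**Figure D3:**
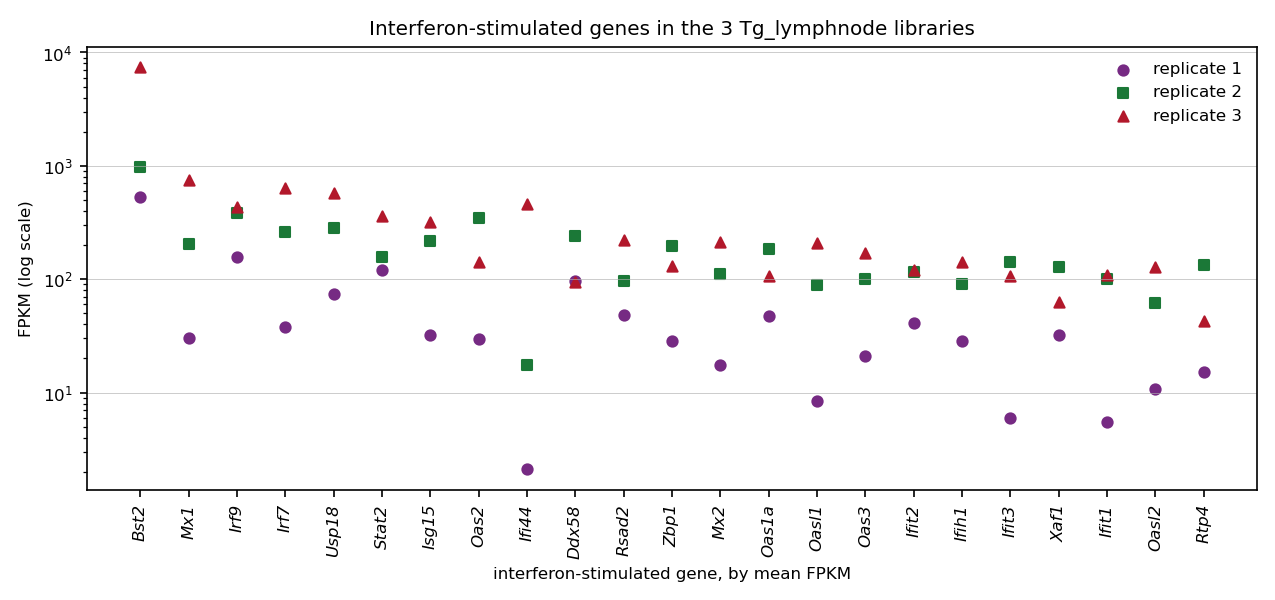
FPKM on a log axis of 23 of the interferon-stimulated genes in Tg_lymphnode replicates 1, 2 and 3, ordered by their mean. Circles of replicate 1 lie lowest for 22 of the 23 genes shown.

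Among the tumours, antigen presentation was highest in replicate 3. Of 13 genes of MHC class II and its loading, 9 were wide and 9 were highest in replicate 3. The class II list summed to 27864, 21651 and 59008 FPKM in tumour replicates 1, 2 and 3. Sums ran from 37622 to 79166 FPKM in Tg_spleen and from 95684 to 114031 FPKM in WT_spleen. Replicate 3 thus lay within Tg_spleen and below WT_spleen, and the other tumours lay below both. H2-Aa had 5019, 3253 and 11889 FPKM and Cd74, the invariant chain, 8756, 7678 and 21458 FPKM in tumour replicates 1, 2 and 3. H2-Ob, a modulator of peptide loading typical of B cells, went the other way with 855.3, 677.8 and 172.2 FPKM. Of 17 class I genes, 4 were wide, near the 22.4% of genes with a mean of at least 100 FPKM. B2m had 7381, 8969 and 18122 FPKM. Lysosomal genes were also highest in replicate 3, for 22 of 24, and 11 were wide. Ctsl, which encodes cathepsin L, had 89.3, 63.1 and 1903 FPKM, and Psap, the precursor of saposins, 2722, 2236 and 8668 FPKM. Between replicates 1 and 2, none of the genes of MHC class I, MHC class II and lysosomes was 2-fold apart. Of 20 genes of the unfolded protein and amino acid stress response, 13 were wide, 12 were highest in the same library and 3 were 2-fold apart between replicates 1 and 2: Hsp90b1, the chaperone GRP94, had 4034, 3058 and 9182 FPKM and Xbp1, a factor of the unfolded protein response, 426, 448.7 and 1567 FPKM.

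Cdkn2a set replicate 2 apart, and several p53 targets were lower in it than in both other tumours. Cdkn2a, which encodes both p16 and Arf from separate promoters, had 5.2, 502.2 and 12.6 FPKM in tumour replicates 1, 2 and 3, against 8.9 to 37.6 FPKM in Tg_spleen and 0 to 2.6 FPKM in WT_spleen. Replicate 2 was far above every other library, and the value per gene cannot tell its 2 products apart. Of 25 genes of the list, 14 were wide, with a median range of 1.25, and 9 were 2-fold apart between replicates 1 and 2. Replicate 2 was lowest for 12 of the 25, against 28.6% of all genes, and highest for 2, and replicate 3 was highest for 14. Of the targets given next, Phlda3 was named by rule, and Zmat3, Bbc3, Ccng1 and Bax were chosen after their values were seen. Zmat3, an RNA-binding protein induced by p53, had 203, 23.7 and 126 FPKM. Phlda3, which restrains Akt, had 64.1, 8.3 and 90.1 FPKM. Bbc3, the death gene also called Puma, had 100.1, 25.3 and 202.5 FPKM. Ccng1 had 606.9, 314.8 and 933.3 FPKM and Bax, which permeabilises mitochondria, 656.3, 333.7 and 564.2 FPKM. Replicate 2 was the low tumour for all 5. It lay within the 13.8 to 37.7 FPKM of Tg_spleen for Zmat3, within 6.9 to 9.3 FPKM for Phlda3 and within 299.7 to 521 FPKM for Bax, and below the 34.7 to 58.6 FPKM of Tg_spleen for Bbc3. Replicates 1 and 3 lay above every spleen library for these 4 genes, so there they stood apart from the spleens more than replicate 2. For Ccng1, replicate 2 lay below every spleen library, replicate 1 within the 554.3 to 762.1 FPKM of Tg_spleen and replicate 3 above every spleen library. Trp53 itself had 523.5, 479.9 and 363.3 FPKM and was lowest in replicate 3. Mdm2, both a target and an inhibitor of p53, was level with 265.3, 206.3 and 263.7 FPKM. Cdkn1a, the p21 inhibitor, had 37.4, 32.1 and 65.3 FPKM. Plk2 had 77.5, 28.6 and 7.9 FPKM and Btg2 402.8, 918.5 and 1753 FPKM, so not every listed target followed Zmat3. Whether these differences go with lesions of Trp53 or Cdkn2a was not tested.

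**Figure D4:**
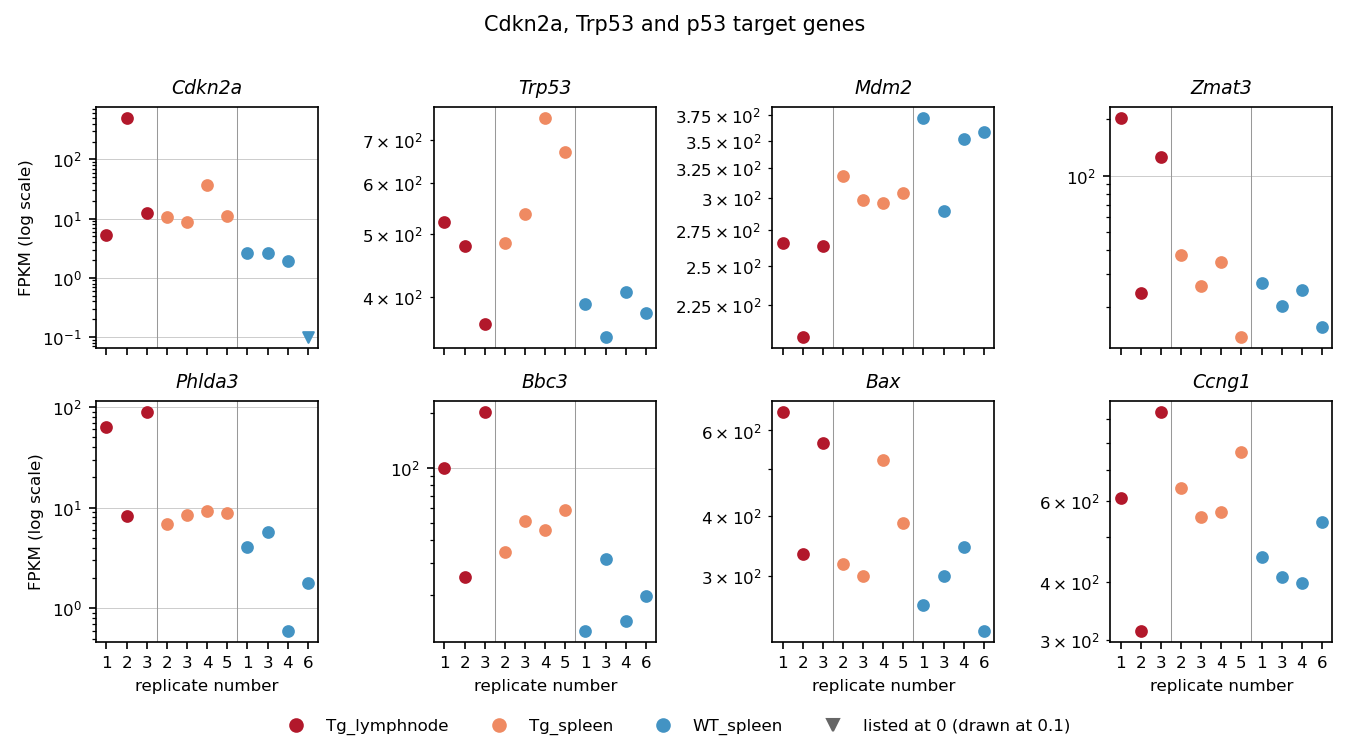
Level of Cdkn2a, Trp53, Mdm2 and 5 p53 targets in each library, as FPKM on a log axis, with Tg_lymphnode at the left, Tg_spleen in the middle and WT_spleen at the right; each point is 1 library and a triangle marks a value listed at 0. Tumour replicate 2 has the highest Cdkn2a and is the lowest of the 3 tumours for Zmat3, Phlda3, Bbc3, Bax and Ccng1.

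Smaller families varied too, and their counts read against all genes, of which 43.3% were wide and 20.0% were 2-fold apart between replicates 1 and 2. All 8 Gimap genes, GTPases of lymphocyte survival, were wide, replicate 3 was lowest for 7 and 1 was 2-fold apart between replicates 1 and 2, with Gimap6 at 809.3, 647.1 and 233.8 FPKM in tumour replicates 1, 2 and 3. Of 19 immediate early genes, which respond to signals within minutes, 13 were wide, 14 lowest in replicate 3 and 4 at least 2-fold apart between replicates 1 and 2, with Egr1 at 35.7, 20.3 and 3.1 FPKM. Of 15 genes typical of the germinal centre and of plasma cells, 11 were wide and 6 were 2-fold apart between replicates 1 and 2, and Sdc1, a proteoglycan of plasma cells, had 51.7, 12.4 and 414.3 FPKM. Of 25 chemokines and their receptors, 17 were wide and 6 were 2-fold apart between replicates 1 and 2, and Cxcr4, which guides cells to marrow and follicles, had 1169, 2066 and 1617 FPKM. The median SD of the chemokine list on log2(FPKM + 0.5) was 0.59 in the tumours and 0.97 in Tg_spleen, and 7 of the 25 had the larger SD in the tumours. Among 21 G1 cyclins, kinases and inhibitors, 11 were wide and 4 were 2-fold apart between replicates 1 and 2. The 2-fold counts of immediate early, chemokine and G1 genes lay near the share of all genes.

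The tumours also differed in some survival genes. Of 17 Bcl2 family genes, 10 were wide, with a median range of 1.24, and 4 were 2-fold apart between replicates 1 and 2. The shares of all genes were 43.3% and 20.0%, so the count between replicates 1 and 2 lay near its share. Bcl2l1, which encodes Bcl-xL, had 63.6, 59 and 1571 FPKM in tumour replicates 1, 2 and 3, and at most 76.9 FPKM in a spleen library. Bcl2 had 67.3, 110.7 and 31.5 FPKM in the tumours, 75.3 to 286.1 FPKM in Tg_spleen and 419.4 to 462 FPKM in WT_spleen. Every tumour and every Tg_spleen library lay below WT_spleen, and tumour replicate 2 lay within the values of Tg_spleen. Bcl2l2 had 27.5, 11.2 and 99.1 FPKM. Mcl1, the protective member with the highest mean, varied less with 1370, 1172 and 833.4 FPKM. Among those that promote death, Bcl2l11, the Bim gene, had 83.3, 98.2 and 125.5 FPKM, and Bmf 72.1, 47 and 23.7 FPKM.

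Other genes that set replicate 2 apart were of no single function. Egfl6, a secreted protein, had 0.9, 144.8 and 0 FPKM in replicates 1, 2 and 3. Agbl1 had 0.4, 88.4 and 1.7 FPKM, Dlk1, an imprinted relative of Notch ligands, 0.3, 56 and 0.3 FPKM, and Fmn2 0.4, 39.7 and 0.2 FPKM. Lowest in replicate 2 were Ranbp17 with 41.5, 0 and 70.4 FPKM, Epha2, an ephrin receptor, with 106.2, 4 and 168 FPKM, and Oaf with 64.1, 3.3 and 117.1 FPKM. In replicate 1, genes of the Y chromosome stood apart. Eif2s3y had 431.3, 1.3 and 0 FPKM and Ddx3y 220.9, 0.5 and 0.5 FPKM, while Xist, transcribed from the inactive X chromosome, had 175.1, 4788 and 4348 FPKM. Y genes were thus at or near 0 in replicates 2 and 3, and Xist was present but low in replicate 1. Scn8a, a sodium channel subunit, had 100.7, 0.9 and 0.7 FPKM. Myo18b had 0, 142.6 and 31.9 FPKM and Fzd10, a Wnt receptor, 0, 12.6 and 144.9 FPKM.

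Division genes lay between the wide and the level functions, and replicate 3 was the low tumour in nearly all of them. It was lowest for 29 of 30 mitosis genes, 31 of 32 DNA replication genes and all 20 replication-dependent histones. Of the same genes 9, 8 and 10 were wide, with median ranges of 0.82, 0.79 and 0.98. Of all genes 43.3% were wide, and of those with a mean of at least 100 FPKM 22.4%. The mitosis and replication counts lay nearer to the share of these abundant genes. Mki67, a marker of cycling cells, had 3440, 2778 and 2175 FPKM in tumour replicates 1, 2 and 3, and Top2a, which untangles DNA, 2488, 2974 and 1777 FPKM. Ccna2, the S phase and G2 cyclin, had 1200, 740.2 and 405.9 FPKM. Cdc25b, which activates mitotic kinases, had 432.9, 218.3 and 103 FPKM. Mcm6, of the replicative helicase, had 1482, 1799 and 1155 FPKM and Lig1, the replicative ligase, 480.9, 385.3 and 160.6 FPKM. Hist2h4, the widest gene of the histone list, had 15342, 24399 and 5367 FPKM. Histone symbols can be copies of near-identical genes among which reads may be split. Between replicates 1 and 2, 0 of 32 replication genes, 2 of 30 mitosis genes and 0 of 20 histones were 2-fold apart. Ccnd1, which acts before S phase, was level at 526.6, 565.4 and 543.5 FPKM, whereas Cdk2 had 378.8, 226.6 and 107.8 FPKM and E2f2 382.5, 519.6 and 130.4 FPKM.

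**Figure D5:**
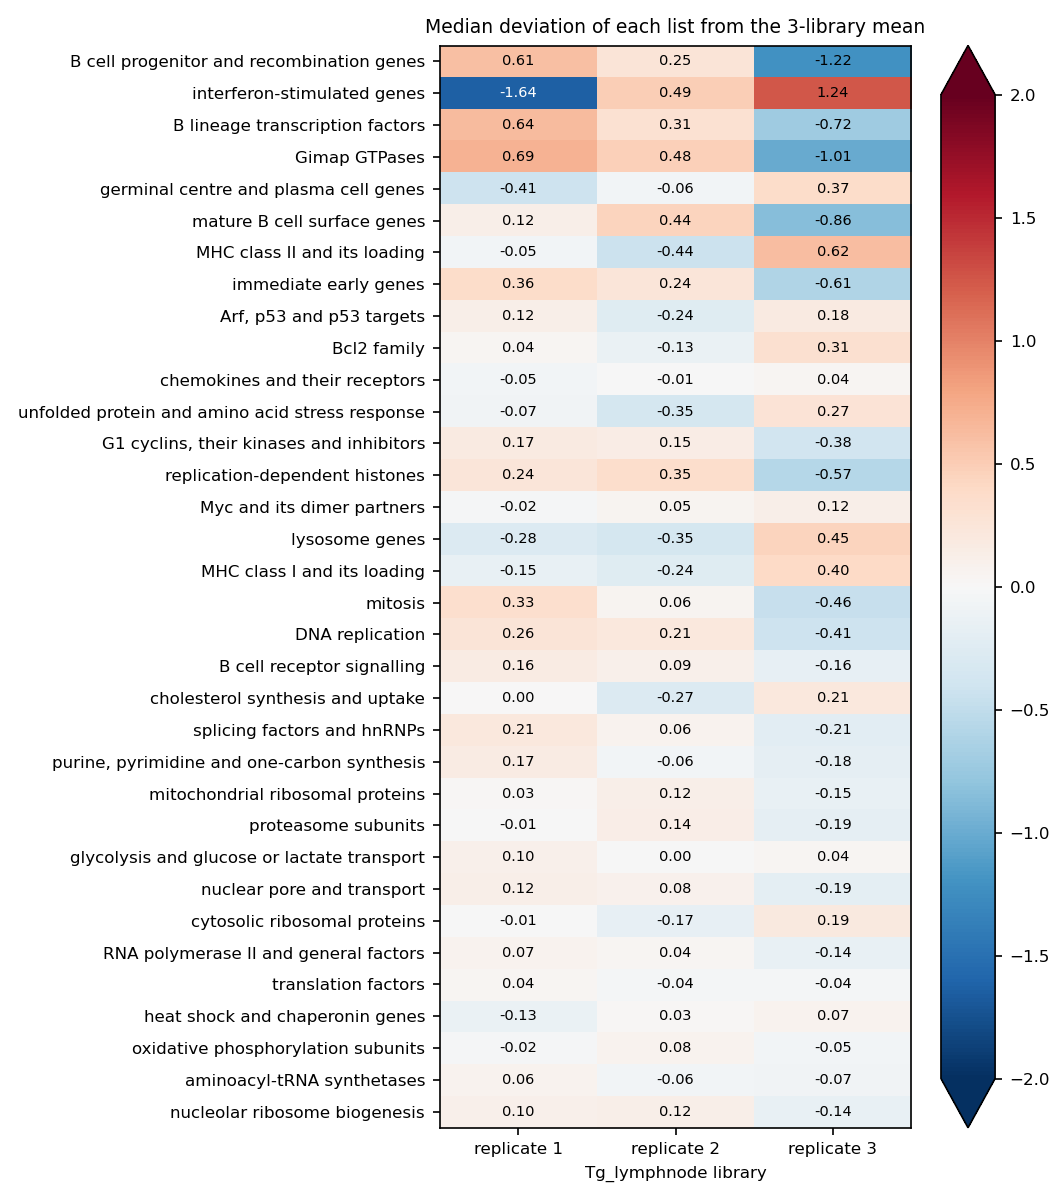
Median deviation of the genes of each function list from the mean of the 3 Tg_lymphnode libraries, per library, on log2(FPKM + 0.5), with lists ordered by their range; red is above and blue below the mean. Replicate 1 is lowest for interferon-stimulated genes (-1.64), replicate 3 is lowest for B cell progenitor genes (-1.22), and the lists at the foot stay near 0 in all 3 libraries.

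Myc was level, as were 18 of 33 genes of ribosome biogenesis, against 39.7% of genes with a mean of at least 100 FPKM. Myc had 2123, 2179 and 1759 FPKM in the tumours, a mean of 2020 ± 228 (SD, n = 3) and a range of 0.31. Every tumour lay above the 190.7 to 273.3 FPKM of WT_spleen, and all 3 lay within the 1017 to 2408 FPKM of Tg_spleen. The value does not separate the transgene from the endogenous gene. Max was among the 10 narrowest genes with a mean of at least 100 FPKM, at 296.5, 292.6 and 292.4 FPKM. Other members of the network varied more: Mxd4, a repressor that competes for Max, had 399.9, 885.7 and 915.1 FPKM, and Mycl1 1.4, 2.2 and 39.2 FPKM.

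Of 33 genes of ribosome biogenesis in the nucleolus, 3 were wide, with a median range of 0.36, the smallest of the function lists with more than 1 gene. Npm1, which shuttles ribosomal particles, had 6587, 6000 and 5819 FPKM and Nop56, of the box C/D particle, 1968, 1832 and 2038 FPKM in tumour replicates 1, 2 and 3. The 3 wide ones were Ncl, with 2119, 1640 and 997.6 FPKM, Gar1, with 350.1, 222 and 110.5 FPKM, and Mybbp1a, with 1452, 1738 and 826.8 FPKM. Replicate 3 was lowest for 22 of the 33 genes. The counts of this paragraph read against genes with a mean of at least 100 FPKM, of which 39.7% were level and 22.4% wide. Among those genes replicate 3 was lowest for 44.5% and highest for 33.2%. Of 40 ribosomal proteins, 21 were level and 3 wide, and 27 were highest in replicate 3. Translation factors were level in 15 of 27, with Eif3g at 1007, 972.6 and 951.1 FPKM. The elongation factors were exceptions: Eef1a1 had 28993, 24657 and 52966 FPKM and Eef2 13651, 5797 and 14203 FPKM. Of 20 aminoacyl-tRNA synthetases, 11 were level and 1 wide, namely Lars at 502.1, 427.9 and 955.3 FPKM. Reads of ribosomal protein genes can be shared with their many processed copies, so their values are uncertain.

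Subunits of oxidative phosphorylation were also even. None of 30 subunits of oxidative phosphorylation was wide, with a median range of 0.43, against 43.3% of all genes and 22.4% of those with a mean of at least 100 FPKM. Atp5a1, of ATP synthase, had 3816, 3714 and 3741 FPKM in the tumours, and Uqcrc2, of complex III, 846.3, 858.3 and 809.6 FPKM. The widest was Uqcrfs1, at 732.8, 411.2 and 659.5 FPKM. Of 25 mitochondrial ribosomal proteins 1 was wide. Among 24 glycolysis genes 5 were wide and 12 level, close to the 22.4% wide of genes with a mean of at least 100 FPKM. Aldoa had 857.2, 897.6 and 920.4 FPKM, while Ldha, which forms lactate, had 3132, 3464 and 1664 FPKM and the lactate transporter Slc16a1 1590, 956.6 and 651.7 FPKM. Nucleotide and one-carbon synthesis had 3 wide genes of 29. Cholesterol synthesis had 3 wide genes of 21 and 6 level, with a median range of 0.68, above the 0.59 of genes with a mean of at least 100 FPKM.

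Genes of gene expression and protein turnover held few wide members, while their level counts lay nearer to those of other abundant genes, of which 39.7% were level. Of 31 proteasome subunits, 13 were level and 1 was wide, Psmd12 at 491.3, 646 and 317.9 FPKM, and Psmd2 had 415.1, 409.7 and 398.6 FPKM. Of 25 genes of RNA polymerase II and its general factors, 14 were level and 1 was wide. Of 25 nuclear pore and transport genes, 12 were level and 1 was wide, and of 34 splicing factors 17 and 2. Hnrnpf had 1083, 1119 and 1187 FPKM. Heat shock and chaperonin genes were level in 13 of 22 and wide in 6, a share no smaller than the 22.4% of genes with a mean of at least 100 FPKM. Cct7, of the cytosolic chaperonin, had 1137, 1258 and 1272 FPKM, and Hsph1, which is induced by heat, 174, 608.8 and 454.2 FPKM. The narrowest gene with a mean of at least 100 FPKM was Rab11a, a GTPase of recycling endosomes, at 195.9, 195.7 and 195.6 FPKM. The next were Gcsh, of glycine cleavage, at 213.7, 214.4 and 214.4 FPKM, and Glod4 at 236.1, 238.7 and 238.4 FPKM. Actb, among the 12 most abundant genes of the naming rule, had 16650, 18631 and 16247 FPKM. Lists of level functions hold abundant genes, and in all genes the share of wide ones was 73.5% under 10 FPKM and 21.9% from 100 to 1000 FPKM.

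Markers of tissues around the node differed in their evenness. Fibroblast and matrix genes were among the even ones, with 4 of 16 wide and a median range of 0.54, and they summed to 866.6, 1081 and 1136 FPKM in tumour replicates 1, 2 and 3, against at most 54.9 FPKM in WT_spleen. Col1a2, a collagen chain, had 102.7, 135 and 122 FPKM and Dcn, a matrix proteoglycan, 101.7, 103.7 and 122.9 FPKM. Genes of the exocrine pancreas were wide in 20 of 20 and highest in replicate 3 in all 20, and 3 were 2-fold apart between replicates 1 and 2. They summed to 3446, 2451 and 14505 FPKM, with Ctrb1, a chymotrypsinogen, at 808.8, 452.1 and 2255 FPKM. Salivary genes summed to 1394, 4883 and 8353 FPKM, and Psp, the parotid secretory protein, had 735.2, 2985 and 4968 FPKM. These lists summed to at most 247.2 and 71.6 FPKM in WT_spleen. Macrophage genes summed to 5966, 2699 and 4850 FPKM, with Lyz2 at 4149, 1730 and 3052 FPKM, and neutrophil genes to 468.4, 1429 and 288.6 FPKM, with S100a8 at 212.2, 697.2 and 83.6 FPKM. Endothelial genes were wide in 6 of 12, with Kdr, a receptor of vascular growth factor, at 10.6, 21.4 and 272 FPKM and Tek at 2.3, 2.6 and 2.5 FPKM. Wide genes numbered 5 of 9 in NK cell markers, 5 of 7 in lymph node stroma, 8 of 11 in erythroid, 5 of 7 in platelet and 7 of 8 in adipocyte markers, most of them at low levels. The counts of these tissues read against all genes, of which 43.3% were wide. That share was 48.6% for means of 10 to 100 FPKM and 73.5% under 10 FPKM. Erythroid and platelet markers, with median means of 7.67 and 9.1 FPKM, lay near the last share. Defining markers at 0 were few: the pancreatic factor Ptf1a was listed at 0 in replicates 1 and 2 and had 1.6 FPKM in replicate 3. The part of these other tissues in the ranges of the remaining genes was not tested.

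Set against the spread among libraries of the spleen groups, the 3 tumours had the larger SD in lineage and interferon genes, but for both lists 1 library carried much of it. The median SD of a gene on log2(FPKM + 0.5) was 0.45 over the 3 tumours, 0.35 over Tg_spleen and 0.23 over WT_spleen. For B lineage transcription factors it was 1.09, 0.29 and 0.16 in Tg_lymphnode, Tg_spleen and WT_spleen, and for interferon-stimulated genes 1.55, 0.55 and 0.46. All 24 interferon-stimulated genes had a larger SD in the tumours than in either spleen group, against 61.4% of all genes for Tg_spleen and 74.0% for WT_spleen. For ribosome biogenesis the medians were 0.20, 0.39 and 0.13, and for mitosis genes 0.44, 0.88 and 0.23. The transgenic spleens thus had the larger SD in 29 of 30 mitosis genes and in 27 of 33 ribosome biogenesis genes. Without tumour replicate 3 the median SD of the tumours was 0.37 for B lineage transcription factors, with 8 of 23 above Tg_spleen, 0.21 for mitosis genes, 0.15 for ribosome biogenesis genes and 0.29 for all genes. That of interferon-stimulated genes was then 1.65, with 23 of 24 above Tg_spleen, but without replicate 1 it was 0.74, with 15 of 24 above Tg_spleen and 15 of 24 above WT_spleen. Of all genes, 43.8% were above Tg_spleen without replicate 3. Without replicate 1, 54.0% of all genes were above Tg_spleen and 64.4% above WT_spleen, so the 15 of 24 lay near these shares. With 1 tumour left out, an SD rests on fewer libraries than those of the spleen groups. These SDs are descriptions over few libraries and carry no test. Only the spleen groups were enriched on B220 beads, so this step and the spread of the tumours themselves cannot be told apart.

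Each library's distance from its group mean, as the median over genes of the scaled absolute deviation, was 0.333, 0.313 and 0.403 in tumour replicates 1, 2 and 3, against 0.165 to 0.194 in WT_spleen. The difference was 0.169 (exact permutation test, two-sided, p = 0.0286, the smallest that 35 assignments allow), and the groups did not overlap. Against Tg_spleen, with distances of 0.203 to 0.322, the difference was 0.0687 (exact permutation test, two-sided, p = 0.171). Without tumour replicate 3 the differences were 0.0915 against WT_spleen (exact permutation test, p = 0.0667, the smallest possible) and -0.0097 against Tg_spleen (exact permutation test, p = 0.867). The wider spread against WT_spleen therefore kept its direction without that library, and the one against Tg_spleen did not. The 2 tumours left have equal distances by construction, so only the direction can be read from them. Each distance is taken from the mean of its own group, so distances within a group are not independent, which the permutation test does not allow for. Enrichment on B220 beads, done for the spleen groups only, cannot be told apart from tumour spread in this test or the next.

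Gene by gene, limma on the scaled absolute deviations found no gene with a larger spread in tumours at an adjusted p under 0.05, against either WT_spleen (0% of 14758 genes) or Tg_spleen (0% of 14692 genes). At an unadjusted p under 0.05 there were 3408 and 2170 such genes. Deviations from the mean of only 3 tumours are tied to each other, and their own scatter grows with the spread. The test can therefore hardly call a larger spread, and the count of 0 does not show that no gene had one. A smaller spread in tumours was called for 24 genes against WT_spleen (0.163%) and 25 against Tg_spleen (0.170%), and 307 and 664 at an unadjusted p under 0.05. Without any 1 of the 4 spleen libraries of a comparison, and with the replicate number as a block, limma called 0 such genes, so the genes named next depend on every spleen library. Of those called, 17 and 16 were predicted genes or small RNAs. Genes entered the test with 1 FPKM in any 3 libraries of the 2 groups, so the 3 tumours alone could admit a gene. In WT_spleen, 1 read in a gene of 1 kb was worth 0.919 to 1.25 FPKM. The part of counting error in the spread of spleen groups with means near that level was not tested. Pdgfrb, a receptor of mesenchymal cells, had 9.4, 11.5 and 9.5 FPKM in the tumours and a mean of 0.5 FPKM in WT_spleen, with a spread of 0.15 in tumours and 0.92 in WT_spleen (limma, adjusted p = 0.0186). Rarres2 had a spread of 0.42 in tumours and 1.56 in Tg_spleen (limma, adjusted p = 0.0431), with means of 20.2 and 1.38 FPKM. Xist had a spread of 2.56 in tumours and 6.78 in Tg_spleen (limma, adjusted p = 0.0431), where 2 libraries had 2550 and 2893 FPKM and 2 had at most 0.4 FPKM. The others named by the rule were Gpihbp1, Tmem181b-ps and Il23a against WT_spleen, with adjusted p of 0.0124, 0.0154 and 0.0441 in limma, and Olfm2 and Rnf151 against Tg_spleen, with 0.0423 and 0.0431. The first 3 had means in tumours and WT_spleen of 3.4 and 1.95 FPKM, 1.93 and 14.6 FPKM, and 1.13 and 0.95 FPKM. Olfm2 had means of 12.0 and 10.15 FPKM in tumours and Tg_spleen, and Rnf151 of 8.47 and 2.525 FPKM. With the 3 groups in 1 fit, limma called 1287 genes with a larger spread against WT_spleen and 785 against Tg_spleen, so the count of 0 depends on that choice.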

How the data were processed

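RNA of 11 B cell and tumour samples was used; 18 fibroblast libraries were not used here. Per the labels' protocols, total RNA was depleted of ribosomal RNA. FPKM values were deposited by the authors with 1 decimal, per the file headers. Per the submitters' processing notes, reads were placed on mm9 and HTSeq 0.5.3p9, SAMtools, TopHat and TopHat2 2.0.8 are named; annotation, read filters and strand use are not given in the sources used here. Read numbers are estimates from the spacing of low values and the exon lengths of a later annotation, available for 89.5% of genes.

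Values were taken as log2(FPKM + 0.5). Ranges, SDs and lists (36 of functions, 16 of cell types) are descriptions without a test. Spread was tested with limma 3.58.1 in R 4.3.3 (robust eBayes) on absolute deviations from the group mean, scaled for group size, over genes with 1 FPKM in at least 3 libraries of both groups, two-sided, with Benjamini-Hochberg adjustment. Distances of libraries were tested by exact permutation. The code was tested on simulated data. Tables and figures used Python 3.11.15, NumPy 2.4.6, pandas 2.3.3 and Matplotlib 3.10.9. Members and lists were chosen with earlier results of these data known. Genes were named by rule: Myc, the 12 highest means, the 10 narrowest with a mean of 100 FPKM, the 6 above and 4 below both others in each library (20 FPKM, 2-fold), per list the most abundant, 3 widest and narrowest members, and the 4 smallest adjusted p per spread test. Predicted genes, small RNAs and antigen receptor genes were left out. Some genes that the rule or the lists take in are not reported here. Further list members were chosen after their values were seen. Alternatives changed the pseudocount (0.1, 1), the filter (none, 5 FPKM), the scaling (median ratio, quantile), the centre (median), the fit (eBayes without robust, all 3 groups, a replicate block) or left out 1 library at a time.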

Additional observations from a re-analysis of the deposited data

Results flagged for a closer look

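In WT_spleen replicate 6, Pax5 was at 2152 FPKM and Tlr9 at 295.5 FPKM, each far below the other 3 libraries of that group relative to the group's whole range. Their highest values in WT_spleen were 3175 and 548.1 FPKM. The tumour group has 3 libraries and was not tested in this way. Of 44 groups tested, 2 stood out, and chance flags about 1 in 20.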

How the results depend on the processing

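Over genes with at least 1 FPKM, the count of wide genes and of level genes stayed within 1.5 times the reported one under both pseudocounts, the 5 FPKM filter, median ratio scaling and quantile normalization. With no filter, 9002 genes were level, since genes at 0 in every library then count as level. Leaving out 1 tumour gave 3087 to 4867 wide genes, with 3087 without replicate 3 and 4562 without replicate 1, and 6866 to 8703 level genes; a range over 2 libraries cannot exceed that over 3. Of 266 named genes 177 were wide, against 76 to 139 with 1 tumour left out (76 without replicate 3). Of 36 function lists, 17 had a median range above that of all genes, and 15 to 20 with 1 tumour left out. Over single lists and genes, 426 of the values under an alternative moved by less than 1 SD of the tumours for lists and 42 by more, and 2100 and 281 for genes. Leaving out 1 tumour, tried after the data were seen, moved 45 of the median SDs per list by over 1.5 times and 114 by less.

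The distance of tumours from their mean exceeded that of Tg_spleen by 0.0982 after quantile normalization (exact permutation test, p = 0.0286, against 0.0571 to 0.229 under the other pseudocounts, filters and scaling). With deviations from the group median, added after the data were seen, the difference was -0.0601 against Tg_spleen and 0.0277 against WT_spleen (exact permutation test, p = 0.343 and 0.857). In 3 libraries the middle one is then at 0 by construction. Leaving out 1 library gave differences of 0.0915 to 0.201 against WT_spleen, with exact permutation p of 0.0667 or 0.1, the smallest these sizes allow, and of -0.0097 to 0.0994 against Tg_spleen.

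For the spread per gene, larger in tumours, the fit of all 3 groups gave 1287 genes against WT_spleen and 785 against Tg_spleen. Leaving out 1 library gave 0 to 5459 and 0 to 3261, where the high counts are those with 2 tumours left, whose deviations are then equal by construction (3354 and 1515 without replicate 3). For a smaller spread, against WT_spleen and Tg_spleen, a pseudocount of 0.1 gave 64 and 61, a pseudocount of 1 gave 14 and 10, no filter 127 and 67, and deviations from the median 6 and 2. The fit of all 3 groups gave 77 and 173, and quantile normalization gave 16 against Tg_spleen. Leaving out 1 library gave 0 to 319 and 0 to 391. The 0 came without any 1 of the 4 spleen libraries of either group. The cause of these differences was not tested. With the replicate number as a block, 0 genes had a larger and 0 a smaller spread in either comparison. Whether same-numbered libraries share more than a number is not known. The deviations of such libraries correlated at -0.02 to 0.05, which cannot decide it.

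FPKM values carry no replicate of 1 tumour, so biological and technical spread cannot be told apart. Under 10 FPKM, counting error alone gave an SD of about 0.61 on the log2 scale for the median gene, and of 0.06 from 100 to 1000 FPKM. Whether Rpph1 or the other tissues in the suspensions set part of the ranges was not tested.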
